A study of Mus musculus with 12 samples.

Results

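The genes described here are 39 genes of skeletal muscle that encode parts of the sarcomere, of calcium handling and of muscle energy metabolism. They were chosen by their levels in these libraries, which differ between mice of 1 group, given as a list of symbols and matched to the Ensembl rows of a table of 50684 genes. All 39 were found, and all 39 passed the filter on low counts that left 19408 genes for testing. The fold changes and calls below therefore describe these libraries and are not independent evidence of a change.

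RNA-Seq was performed on ear tissue of female C57BL/6 mice, 8 weeks of age, that were treated by intradermal injection into the ear and killed after 4 consecutive days of treatment. The 4 groups received PBS, IL-17A, IL-36γ or IL-17A + IL-36γ, at 1 µg of each cytokine per ear in 5 µl per the labels. The labels name no transgene, and all groups shared the strain, sex, age and the injection itself. Each group held 5 mice, of which 3 were sequenced, which gives 12 libraries. A part of the ear was used for RNA, and the sources do not state how much muscle, cartilage or fat each piece held. The libraries held 25293468 to 34759293 counts, and levels are given as counts per 1000000 (CPM) after TMM scaling.

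Skeletal muscle fibres contract when myosin heavy chains of the thick filament pull on actin of the thin filament. Calcium released from the sarcoplasmic reticulum binds troponin and moves tropomyosin aside, and calcium pumps and buffers end the contraction. Fibres differ in speed and in the heavy chain they use: Myh7 is the chain of slow fibres, and Myh2, Myh1 and Myh4 are those of increasingly fast ones. In the mouse ear, small striated muscles lie at the base of the auricle.

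The members made up a small and uneven part of the RNA. Their counts were 0.218%, 1.56% and 1.37% of all counts in PBS replicates 1, 2 and 3, and 0.613%, 0.908% and 1.08% in the IL-17A group. The shares were 0.730%, 0.496% and 0.786% in the IL-36γ group and 0.186%, 0.142% and 0.586% in the IL-17A + IL-36γ group. The share of PBS replicate 1 therefore lay in the range of the combination, far below PBS replicates 2 and 3. Titin (Ttn), the giant spring protein of the sarcomere, held 34.6% to 50.7% of the members' counts. The highest level fell in PBS replicate 2 for 28 members and in IL-17A replicate 3 for 11. The lowest fell in IL-17A + IL-36γ replicate 2 for 35 members, in replicate 1 of that group for 2 and in PBS replicate 1 for 2. In bulk RNA, fewer muscle fibres and less RNA per fibre cannot be told apart.

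**Figure D1:**
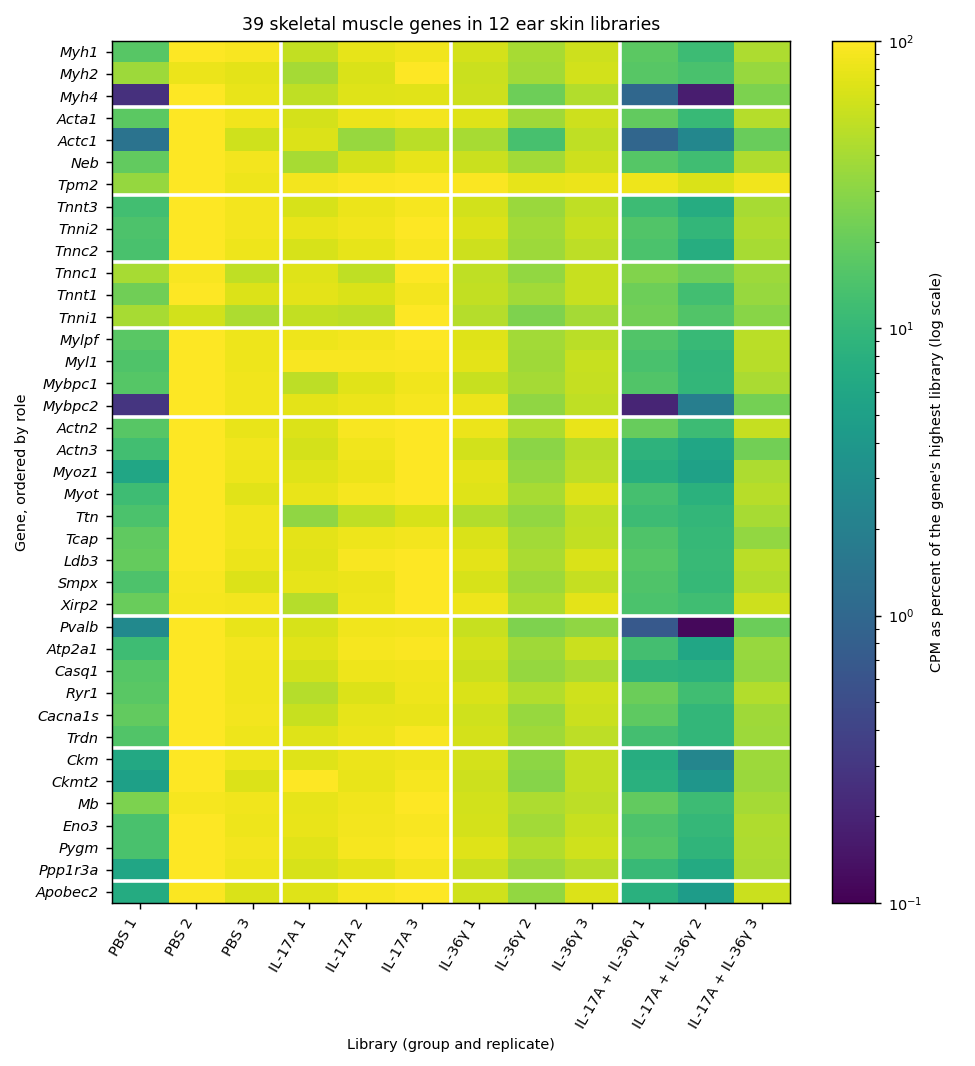
Level of each of the 39 members (rows, ordered by role and separated by white lines) in each of the 12 libraries (columns, by group), as a percent of the gene's highest library on a log colour scale. PBS replicate 1 and IL-17A + IL-36γ replicates 1 and 2 are the darkest columns in most rows, and Tpm2 is bright in all libraries of the combination.

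The spread between mice of a group was wide in some groups and narrow in others. The members were chosen for levels that differ between libraries of a group. A spread wider than that of all genes was therefore built into the choice, and the values here are a description only. The median fold between the highest and the lowest library of a group, on CPM + 0.1, was 6.45 over the members in PBS, 1.38 in IL-17A, 1.75 in IL-36γ and 4.53 in IL-17A + IL-36γ. Over all genes tested it was 1.201 to 1.237 in the 4 groups. The biological coefficient of variation, the variation between mice beyond counting error, had a median of 50.2% over the members and 11.9% over all genes tested, and Myh4 had the highest value of the members, 114%.

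The fast myosin heavy chains Myh2, Myh1 and Myh4 lie in this order on the + strand of chromosome 11 (GRCm38, the build of the files), at chr11:67171027-67197517, chr11:67200052-67224575 and chr11:67238029-67260446. Myh4, the chain of the fastest fibres, had levels of 1.85, 711 and 569 CPM in PBS replicates 1, 2 and 3, and of 369, 509 and 523 CPM after IL-17A. After IL-36γ its levels were 422, 156 and 320 CPM, and after IL-17A + IL-36γ they were 7.06, 1.24 and 183 CPM. PBS replicate 1 thus held 0.261% of the level of PBS replicate 2, and the PBS and combination groups overlapped.

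Myh1, the chain of fast fibres of intermediate speed, stood at 190, 1137 and 1050 CPM in PBS, 611, 886 and 993 CPM after IL-17A, 720, 466 and 680 CPM after IL-36γ and 198, 129 and 482 CPM after the combination. Myh2, the chain of the slower fast fibres, stood at 47.9, 107 and 99.7 CPM in PBS and at 52.0, 88.1 and 131 CPM after IL-17A. After IL-36γ Myh2 stood at 75.5, 50.1 and 81.0 CPM and after the combination at 21.7, 17.8 and 45.0 CPM, all 3 below every PBS library. The fold between the highest and the lowest of the 12 libraries was 572 for Myh4, 8.83 for Myh1 and 7.34 for Myh2.

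The 250 bases before the RefSeq start of Myh4 and Myh2 are shown, chosen because these neighbours spread unequally between libraries. Any link between these sequences and the spread was not tested. Actin Acta1 was added as the thin filament member with the highest mean level per kb of exon. The sequences were taken from RefSeq (GRCm38.p6) and are written 5′ to 3′ on the strand of the gene. They lie at chr11:67237562-67237811 (Myh4), chr11:67170777-67171026 (Myh2) and chr8:123894776-123895025 (Acta1, - strand). Capitals mark E-boxes (CANNTG), the MEF2 site, the CArG box and TATAAA, searched on both strands.
Myh4: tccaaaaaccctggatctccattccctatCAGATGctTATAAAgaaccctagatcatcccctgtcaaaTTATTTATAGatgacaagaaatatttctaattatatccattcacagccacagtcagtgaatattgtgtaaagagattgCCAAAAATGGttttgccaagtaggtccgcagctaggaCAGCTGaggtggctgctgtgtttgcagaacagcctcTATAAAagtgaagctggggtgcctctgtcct
Myh2: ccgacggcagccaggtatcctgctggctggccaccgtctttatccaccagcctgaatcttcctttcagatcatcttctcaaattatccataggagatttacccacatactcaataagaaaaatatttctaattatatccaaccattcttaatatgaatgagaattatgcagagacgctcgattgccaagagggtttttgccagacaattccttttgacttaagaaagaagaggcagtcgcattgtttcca
Acta1: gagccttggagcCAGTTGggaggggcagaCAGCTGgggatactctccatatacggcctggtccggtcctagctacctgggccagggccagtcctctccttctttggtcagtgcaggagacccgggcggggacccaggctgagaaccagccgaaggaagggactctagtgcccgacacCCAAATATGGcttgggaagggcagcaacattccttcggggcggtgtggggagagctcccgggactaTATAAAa

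E-boxes bind MyoD-type factors, the MEF2 site binds MEF2 and the CArG box binds SRF, all regulators of muscle genes. In Myh4 the window held E-boxes starting 221 and 67 bases before the start, a MEF2 site at 182, a CArG box at 104 and TATAAA at 213, 179 and 31. The window of Myh1 (chr11:67199852-67200101), which runs past the gene's GENCODE start and is not printed, held a MEF2 site at 211 and TATAAA at 208 and 32. In both genes the MEF2 match and a TATAAA match overlap. Myh2 held no match in this window. In Acta1, E-boxes lay at 238 and 221, a CArG box at 73 and TATAAA at 7.

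Promoter sequences were found for 31 of the 39 members, which have 36 such windows. The E-box of sequence CAGCTG, which counts among the CANNTG matches too, occurred in 18 of the 36 windows, or 50%, and in 13% of all 32851 windows of the table. Any E-box occurred in 77.8% against 66.2%, the MEF2 site in 16.7% against 2.92%, the CArG box in 13.9% against 1.47% and TATAAA in 19.4% against 12.4%. Windows of the same gene overlap in Ldb3, Tnni1 and Mb, so that a site can count more than once. By gene, CAGCTG occurred in 16 of 31, the MEF2 site in 6 and the CArG box in 4. No share by gene was computed over all genes, so these counts cannot be set against the shares of windows. The shares above were not used to choose the members. They describe letters in a window and not binding.

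Within the sarcomeric myosin heavy chains, the balance differed between libraries of 1 group. The share of Myh4 in the CPM per kb of exon of 6 chains (Myh1, Myh2, Myh4, Myh7, Myh3 and Myh8) was 0.729%, 35.3% and 32.5% in PBS replicates 1, 2 and 3. It was 34.8%, 33.6% and 30.9% after IL-17A, and 34.2%, 22.8% and 29.0% after IL-36γ. After IL-17A + IL-36γ it was 3.04%, 0.845% and 25.5%. For PBS replicate 1, 67 counts lay behind this share, with an exact (Clopper-Pearson) 95% interval of 0.566% to 0.925%, which covers counting error only.

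Myh1 made up 53.5% to 82.9% of these chains, with the highest shares in IL-17A + IL-36γ replicates 1 and 2 (80.7% and 82.9%) and 70.8% in PBS replicate 1. The share of Myh2 was 15.9% in PBS replicate 1 against 4.49% and 4.80% in the other PBS libraries. The embryonic chain Myh3, not a member, held 10.6% in PBS replicate 1 and 4.46% to 7.24% in all other libraries. Reads of Myh1, Myh2 and Myh4 are partly shared: 20.6%, 15.3% and 9.38% of the 76-base windows of their exons occur in another gene, and how such reads were assigned was not tested.

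**Figure D2:**
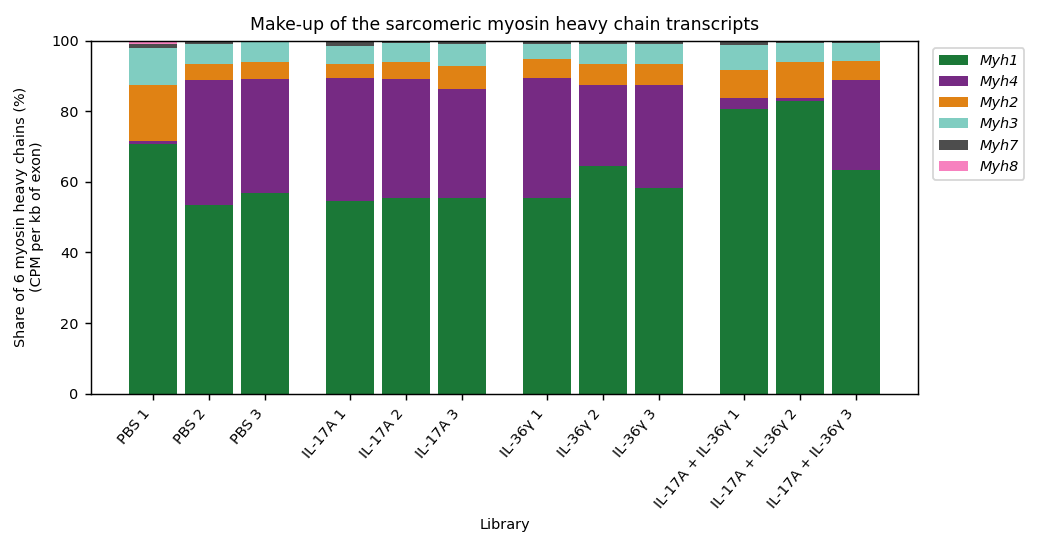
Share of each of 6 sarcomeric myosin heavy chains in their summed CPM per kb of exon, in percent, for each of the 12 libraries. Myh4 (purple) takes 22.8% to 35.3% in 9 libraries, and 0.729%, 3.04% and 0.845% in PBS replicate 1 and IL-17A + IL-36γ replicates 1 and 2.

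Among the thin filament genes, skeletal actin Acta1 stood at 72.8, 418 and 357 CPM in PBS, 272, 338 and 370 CPM after IL-17A, 301, 155 and 246 CPM after IL-36γ and 79.98, 43.6 and 193 CPM after the combination. The PBS and combination groups overlapped only through PBS replicate 1. Tropomyosin Tpm2, which covers the myosin-binding sites of actin and is also made outside skeletal muscle, had the smallest spread of the members, 2.96-fold. Tpm2 stood at 64.1, 189.7 and 160.4 CPM in PBS, 166, 184 and 189 CPM after IL-17A, 182, 146 and 154 CPM after IL-36γ and 160.1, 128 and 163 CPM after the combination. It was low in PBS replicate 1 and not in IL-17A + IL-36γ replicates 1 and 2, unlike the other members. Actc1, the cardiac actin that immature skeletal muscle makes too, was named after its values were seen and stood at 0.117 CPM (3 counts) in IL-17A + IL-36γ replicate 1, against 12.1 CPM in PBS replicate 2. Nebulin (Neb), the ruler of the thin filament, ranged from 123 to 1015 CPM.

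The troponins make the thin filament respond to calcium. Of the fast forms, Tnnc2 stood at 22.7, 165 and 140 CPM in PBS and at 23.0, 12.3 and 67.5 CPM after the combination. After IL-17A it stood at 110, 128 and 152 CPM and after IL-36γ at 96.2, 59.4 and 81.8 CPM. Tnnt3 and Tnni2 had folds of 13.8 and 10.3 between highest and lowest library, and both were lowest in IL-17A + IL-36γ replicate 2. Of the 76-base windows of Tnnc2 exons, 34.5% overlap Ube2c on the opposite strand, as do 22.4% of those of Mb and 15.7% of those of Atp2a1 with other genes, and no source used here gives the strand setting of the counting.

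The slow forms spread less. Tnnc1 stood at 3.96, 8.98 and 5.03 CPM in PBS, 6.99, 4.99 and 9.70 CPM after IL-17A, 4.96, 3.14 and 5.44 CPM after IL-36γ and 2.65, 2.09 and 3.48 CPM after the combination. Tnni1 stood at 7.75, 11.9 and 8.12 CPM in PBS, 10.2, 9.54 and 19.2 CPM after IL-17A, 8.82, 5.00 and 7.61 CPM after IL-36γ and 4.41, 2.96 and 5.55 CPM after the combination. For both genes every library of the combination lay below every PBS library. Tnnt1 stood at 13.2, 58.2 and 40.3 CPM in PBS, 44.3, 38.96 and 51.1 CPM after IL-17A, 31.0, 22.1 and 32.4 CPM after IL-36γ and 12.6, 7.21 and 20.1 CPM after the combination, and these groups overlapped. The slow forms made up 14.9%, 7.07% and 5.49% of the troponins per kb of exon in PBS, 12.3%, 13.2% and 6.27% after the combination, and 5.75% to 7.80% in the libraries of the single cytokines.

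Of the other thick filament genes, the fast regulatory light chain Mylpf stood at 49.5, 281 and 242 CPM in PBS, 243, 255 and 288 CPM after IL-17A, 204, 109 and 140.1 CPM after IL-36γ and 44.0, 30.0 and 139 CPM after the combination. Mylpf had the highest mean level per kb of exon of all members, 159 CPM per kb over the 12 libraries, next to 155 for Acta1. Mybpc2, the fast form of myosin-binding protein C, had 1 count in IL-17A + IL-36γ replicate 1 (0.039 CPM) and 0.0554 CPM in PBS replicate 1, against 18.9 CPM in PBS replicate 2. Its slow partner Mybpc1 stood at 29.5 and 182 CPM in those PBS libraries. Mybpc2 was chosen after its values were seen.

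The Z-disc genes anchor actin at the ends of the sarcomere. Telethonin (Tcap), which caps titin there, stood at 20.7, 112 and 96.7 CPM in PBS, 84.0, 94.2 and 99.8 CPM after IL-17A, 75.0, 42.8 and 59.7 CPM after IL-36γ and 16.7, 11.5 and 36.3 CPM after the combination. The fast-fibre actinin Actn3 and its partner Actn2 were picked for description with their values in view. The share of Actn3 in the 2 actinins per kb of exon was 29.0%, 35.6% and 37.9% in PBS and 33.4%, 33.4% and 35.2% after IL-17A. It was 29.7%, 28.2% and 25.2% after IL-36γ and 19.2%, 22.4% and 18.9% after IL-17A + IL-36γ. All 3 libraries of the combination lay below all 9 others, including PBS replicate 1, and an exact test of 3 against 3 mice cannot give a two-sided p below 0.1.

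Of the calcium handling genes, Atp2a1, the fast calcium pump of the reticulum, stood at 43.0, 364 and 320.3 CPM in PBS, 269.6, 332 and 349 CPM after IL-17A, 235, 138 and 212 CPM after IL-36γ and 46.2, 21.9 and 126 CPM after the combination. Pvalb, the calcium buffer of fast fibres, had the largest spread, 863-fold. It stood at 1.66, 63.1 and 50.2 CPM in PBS, 41.7, 53.8 and 55.4 CPM after IL-17A, 35.2, 16.6 and 20.1 CPM after IL-36γ and 0.429, 0.0732 and 13.2 CPM after the combination. Its lowest value rests on 2 counts, and PBS replicate 1 lay between the low and the high library of the combination.

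Of the members of energy metabolism, the muscle creatine kinase Ckm stood at 15.4, 236 and 199 CPM in PBS, 167, 194 and 202 CPM after IL-17A, 151, 72.1 and 129.5 CPM after IL-36γ and 17.4, 5.60 and 85.9 CPM after the combination. Myoglobin (Mb), the oxygen store, stood at 48.8, 172 and 163 CPM in PBS, 148, 165 and 191 CPM after IL-17A, 119.7, 82.2 and 97.2 CPM after IL-36γ and 36.2, 21.6 and 75.98 CPM after the combination. Apobec2, a muscle gene of the deaminase family, stood at 2.69, 36.5 and 25.98 CPM in PBS, 27.2, 35.01 and 38.0 CPM after IL-17A, 22.9, 12.5 and 26.6 CPM after IL-36γ and 3.04, 1.72 and 21.8 CPM after the combination. For all 3 genes PBS replicate 1 lay within the range of the combination.

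**Figure D3:**
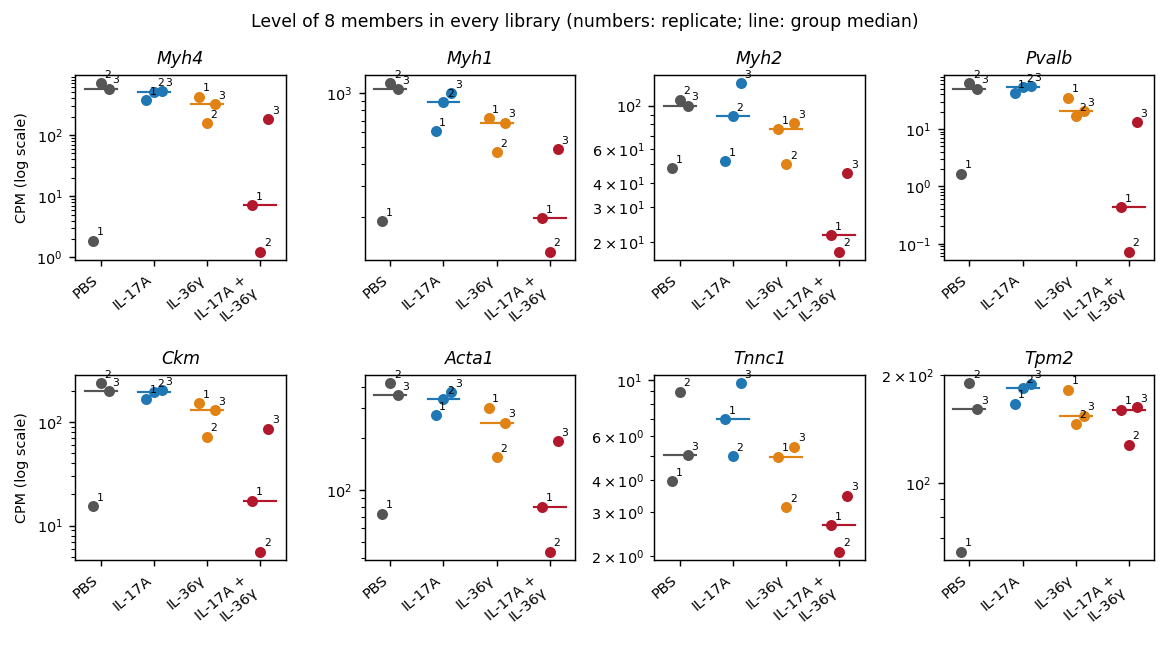
Level of 8 members in every library, as CPM on a log axis that differs between panels. Points are libraries labelled by replicate, and the line is the group median. Replicate 1 of PBS lies apart from the other PBS mice for Myh4, Pvalb and Ckm, and overlaps the combination for these genes, while for Myh2 and Tnnc1 it lies above all 3 libraries of the combination.

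Differences between groups were tested by edgeR's quasi-likelihood method, fitted once to the 12 libraries. A called gene had an adjusted p (Benjamini-Hochberg, over all genes tested) below 0.05 and a log2 fold change beyond 1 in either direction. Each SE is approximate: the absolute log2 fold change divided by the square root of the F statistic of its test. The comparisons with PBS share the 3 PBS mice. After IL-17A, no member was called and none had an unadjusted p below 0.05 (31% of all genes had), where 1.07% of all genes were called raised and 1.03% lowered. The median log2 fold change of the members was 0.31, against 0.04 over all genes, and it was -0.17 without PBS replicate 1 and 0.72 without PBS replicate 2. After IL-36γ, no member was called and none had an unadjusted p below 0.05 (41.8% of all genes had), where 5.11% of all genes were called raised and 1.98% lowered. The median was -0.35, against -0.02 over all genes, and it was -0.79 without PBS replicate 1 and 0.09 without PBS replicate 2. DESeq2 called no member in either comparison and gave none an unadjusted p below 0.05, where it called 1.67% and 2.26% of all genes lowered. Single values had wide errors, such as a log2 fold change of Myh4 of -0.52 (SE 1.44, adjusted p = 0.807) after IL-36γ.

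After IL-17A + IL-36γ, 14 of the 39 members were called lowered and none raised, 35.9% against 6.06% of all genes called lowered and 7.35% called raised. The median log2 fold change was -1.56, against -0.03 over all genes, and 38 members had a value below 0. An unadjusted p below 0.05 was found for 31 members and for 52.3% of all genes. DESeq2 called 15 members lowered, against 6.38% of all genes. The called members were Myh1, Myh2, Neb, all 3 slow troponins, Mybpc1, Actn3, Tcap, Atp2a1, Casq1, Cacna1s, Trdn and Mb. Casq1 stores calcium in the reticulum, Cacna1s is the voltage sensor of the fibre membrane and Trdn ties Casq1 to the release channel. Myh2 had a log2 fold change of -1.59 (SE 0.41, adjusted p = 0.00867), Actn3 of -2.40 (SE 0.66, adjusted p = 0.0113) and Atp2a1 of -1.90 (SE 0.68, adjusted p = 0.0393). Tnnc1 had one of -1.12 (SE 0.35, adjusted p = 0.0197).

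The other called members were genes of the thick and thin filaments, the Z-disc, calcium handling and oxygen storage. Casq1 had a log2 fold change of -2.02 (SE 0.62, adjusted p = 0.0203), Tcap of -1.82 (SE 0.53, adjusted p = 0.0148) and Trdn of -1.77 (SE 0.59, adjusted p = 0.0294). Cacna1s had one of -1.66 (SE 0.55, adjusted p = 0.0277), Mybpc1 of -1.60 (SE 0.60, adjusted p = 0.0454) and Myh1 of -1.56 (SE 0.58, adjusted p = 0.0449). Neb had one of -1.52 (SE 0.57, adjusted p = 0.0463), Mb of -1.52 (SE 0.46, adjusted p = 0.0189), Tnnt1 of -1.48 (SE 0.45, adjusted p = 0.0187) and Tnni1 of -1.10 (SE 0.32, adjusted p = 0.0154). By role, 4 of 6 calcium handling genes and all 3 slow troponins were called, and none of the 3 fast troponins. The fast forms Tnnt3, Tnnc2 and Tnni2 had log2 fold changes of -1.77, -1.67 and -1.54 with adjusted p of 0.0533, 0.0536 and 0.0608, and the difference between fast and slow forms was not tested.

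The 4 members with the largest differences, Pvalb, Mybpc2, Myh4 and Actc1, were not called. Pvalb had a log2 fold change of -3.03 (SE 1.16, adjusted p = 0.0513), Myh4 of -2.74 (SE 1.54, adjusted p = 0.166). Without IL-17A + IL-36γ replicate 3 both were called, at -7.25 (adjusted p = 0.00378) and -6.69 (adjusted p = 0.0117), and both were called too without PBS replicate 1, at -3.58 and -3.32. Mybpc2 had one of -2.82 (adjusted p = 0.0687) and Actc1 one of -2.70 (adjusted p = 0.0616). Nor were the following called: Ckm had one of -2.04 (SE 0.91, adjusted p = 0.0861), Acta1 one of -1.42 (SE 0.59, adjusted p = 0.0665) and Tpm2 one of 0.12 (SE 0.28, adjusted p = 0.752), which was -0.22 without PBS replicate 1 and -0.04 when scaled by library size only. No overlap between the PBS and the combination libraries, with the combination lower, was seen for 3 members (Myh2, Tnnc1 and Tnni1) and for 25.6% of all genes.

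The count rested on single libraries. Without PBS replicate 1, 37 of 39 members were called lowered (Tpm2 and Apobec2 were not), against 8.25% of all genes. Without IL-17A + IL-36γ replicate 3, 38 were called lowered, against 7.54% of all genes. Without PBS replicate 2 or without IL-17A + IL-36γ replicate 2, only Myh2 and Actn3 were called, against 4.51% and 5.05% of all genes. Without PBS replicate 3, 4 members were called and without IL-17A + IL-36γ replicate 1, 3 were, against 4.49% and 4.57% of all genes. Myh2 and Actn3 were called with each of the 12 libraries left out in turn, with log2 fold changes of -2.10 to -1.37 (adjusted p up to 0.0409) and -3.18 to -1.97 (adjusted p up to 0.0488). Over these 12 fits, 4.49% to 8.25% of all genes were called lowered.

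**Figure D4:**
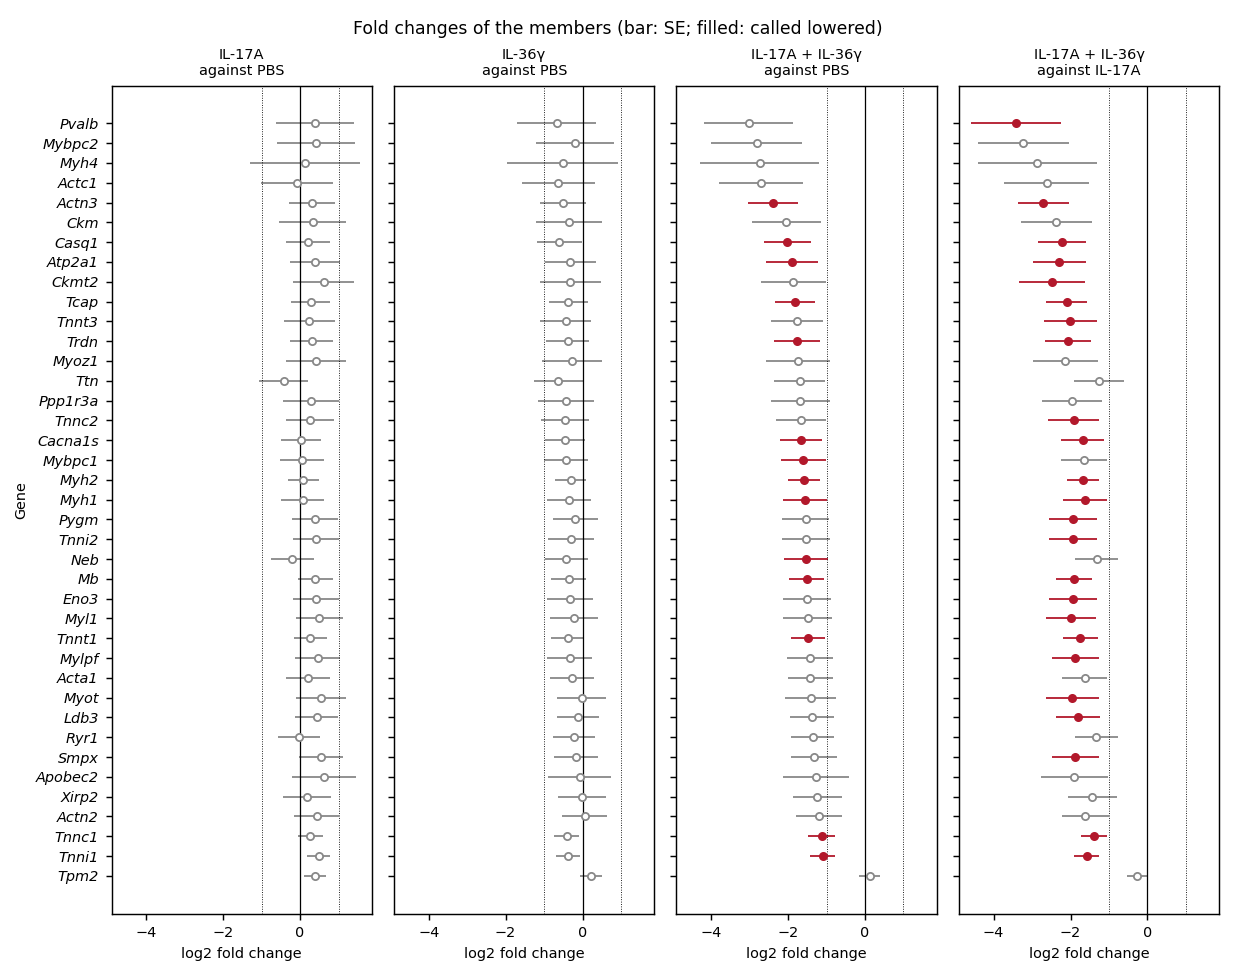
Log2 fold change of each member with its approximate SE in 4 comparisons, with called members filled red and dotted lines at -1 and 1. Genes are ordered by the change in IL-17A + IL-36γ against PBS. The panels of the single cytokines hold no call, with 4 of 39 members below 0 after IL-17A and 37 after IL-36γ. The panel of the combination against PBS holds 14 calls and that against IL-17A 24.

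Against IL-17A alone, the combination had 24 of 39 members called lowered, 61.5% against 4.49% of all genes called lowered, and none raised (4.46% of all genes were). DESeq2 called 23 lowered, against 4.61% of all genes. An unadjusted p below 0.05 was found for 36 members and for 43.4% of all genes. The median was -1.92, against 0.00 over all genes. All 3 libraries of the combination lay below all 3 IL-17A libraries for 36 members, 92.3%, against 25.4% of all genes. All 3 fast and all 3 slow troponins were called, as were 5 of 6 calcium handling genes, 4 of 6 genes of energy metabolism, and 5 of 9 Z-disc genes. Pvalb had a log2 fold change of -3.42 (SE 1.17, adjusted p = 0.0422), Atp2a1 of -2.29 (SE 0.69, adjusted p = 0.0247) and Tnnc1 of -1.39 (SE 0.35, adjusted p = 0.01). The 24 called members had log2 fold changes of -3.42 (Pvalb) to -1.39 (Tnnc1), with adjusted p from 0.00355 (Tnni1) to 0.0488 (Myh1). Acta1 at -1.63 (adjusted p = 0.0516) and Myh4 at -2.87 (adjusted p = 0.177) were not called. In this comparison 7 members (Myh2, Actn3, Mb, Tcap and the 3 slow troponins) were called with each library left out in turn, and no other was called without replicate 1 or replicate 2 of the combination (3.04% and 2.96% of all genes were). The count was 13, 9 and 9 without IL-17A replicates 1, 2 and 3, against 3.69%, 2.98% and 4.26% of all genes. It was 35 without PBS replicate 1 and 38 without IL-17A + IL-36γ replicate 3, against 4.96% and 5.44% of all genes.

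Against IL-36γ alone, no member was called for the combination, where only 2 genes in all (0.0103%, lowered) passed. The median was -1.25, 13 members had an unadjusted p below 0.05 against 15.1% of all genes, and the smallest adjusted p was 0.195. With 1 library left out, the 13 became 1 (without replicate 2 of the combination) to 38 (without its replicate 3), the median -0.87 to -2.16 and the smallest adjusted p 0.0735 to 0.517. DESeq2 called no member either (0.381% of all genes lowered) and gave 10 an unadjusted p below 0.05. All 3 combination libraries lay below all 3 IL-36γ libraries for 11 members, against 11.3% of all genes. In the interaction of the 2 cytokines, called at an adjusted p below 0.05, no member passed by edgeR or DESeq2. Of all genes, 0.551% passed in either direction by edgeR, and DESeq2 called 3.47% raised and 5.18% lowered. By each tool 6 members had an unadjusted p below 0.05, where 22.5% of all genes had by edgeR, and the smallest adjusted p was 0.148 by edgeR and 0.0535 by DESeq2. The median interaction was -1.62 on the log2 scale, against -0.07 over all genes, and all 39 members lay below 0. Without replicate 3 of the combination, 37 members had an unadjusted p below 0.05 and the smallest adjusted p was 0.0905, and without its replicate 2 the count was 0. A non-additive effect on these genes did not pass the threshold at this spread.

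**Figure D5:**
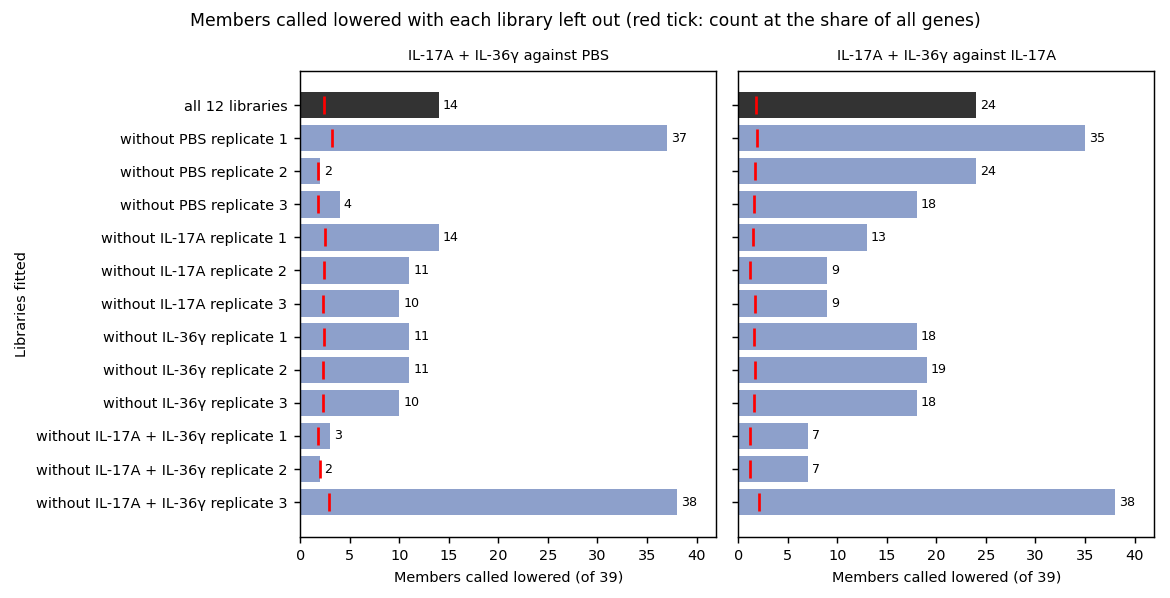
Number of the 39 members called lowered in IL-17A + IL-36γ against PBS (left) and against IL-17A (right), for all 12 libraries and with each library left out. Red ticks mark the count that the share of all genes called would give. The counts run from 2 to 38 on the left and from 7 to 38 on the right.

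Other skeletal muscle genes were counted in the same comparisons. Of 75 genes in 6 further lists, 72 were tested. The lists cover other sarcomere genes, other calcium and excitation genes, other energy genes, the neuromuscular junction and membrane, muscle stem cells, and atrophy. After the combination 40 of the 72 were called lowered against PBS and 44 against IL-17A, 0 raised, where 6.06% and 4.49% of all genes were called lowered. The medians were -1.29 and -1.52. All 3 libraries of the combination lay below all 3 PBS libraries for 11 of the 72, against 25.6% of all genes. Summed over the 75 genes, the level was 589.6, 2117 and 1818 CPM in PBS replicates 1, 2 and 3. Against IL-36γ 0 of the 72 were called, and 0 in the interaction, where 0.0103% of all genes were called lowered and 0.551% passed. Fits with a library left out were not counted for these lists. These lists were also chosen with earlier results known. Cmya5, which encodes a large protein of the Z-disc region, stood at 39.6, 196 and 181 CPM in PBS and at 36.5, 21.7 and 84.9 CPM after the combination. Srl, which encodes a protein of the reticulum lumen, stood at 19.8, 133 and 102 CPM in PBS and at 20.7, 12.2 and 50.7 CPM after the combination. Phosphofructokinase Pfkm stood at 52.3, 146 and 135 CPM in PBS and at 41.9, 38.1 and 71.9 CPM after the combination. Myogenin (Myog), the factor of muscle differentiation, stood at 1.83, 1.19 and 1.76 CPM in PBS, and 0.975, 0.951 and 0.368 CPM after the combination (log2 fold change -1.07, SE 0.30, adjusted p = 0.0135). PBS replicate 1 was the highest of the 6 libraries for Myog, unlike for the other 3 genes, and Myog was picked with its values in view.

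Markers of other tissues of the ear were measured in the same libraries. Calls of these markers are for the combination against PBS, where 6.06% of all genes were called lowered and 7.35% raised. The heart genes Nppa and Myh6 were at or near 0, with Nppa at 0 in all 12 libraries and Myh6 at most at 0.194 CPM. The 6 heart genes summed to 25.4 to 27.2 CPM in PBS and 9.53 to 12.8 CPM after the combination, with 1 of the 4 tested called lowered and 1 raised. The lowered one was Tnnt2, at 18.1 to 22.1 CPM in PBS and 5.58 to 6.55 CPM after the combination. The raised one was Myl7, at 0 in all PBS libraries and 0.334 to 1.17 CPM after the combination. The summed level of 11 cartilage genes was 299.8 to 388 CPM in PBS and 137 to 181 CPM after the combination, with 7 of 10 tested genes called lowered. For 9 adipocyte genes it was 369 to 418 CPM in PBS and 146 to 190.2 CPM after the combination, with 7 of 9 called lowered. In PBS replicate 1 the adipocyte sum was 369 CPM and the cartilage sum 299.8 CPM, each above every library of the combination, where the members' sum was 2100 CPM against 14170 CPM in the highest PBS library. The sum of 8 smooth muscle genes ranged from 122 to 142 CPM in PBS and from 96.3 to 119 CPM after the combination, with 1 called lowered. Keratinocyte genes summed to 15820 to 21440 CPM in PBS and 32400 to 38580 CPM after the combination, with 2 of 6 called raised. Neutrophil genes summed to 20.3 to 99.7 CPM in PBS and 7617 to 10050 CPM after the combination, and 7 of 7 tested were called raised. Schwann cell genes (1 of 5 called lowered), fibroblast genes (0 of 6) and hair follicle genes (0 of 6) summed to 165, 8731 and 35.95 CPM or more in PBS and to 135, 8025 and 24.4 CPM or less after the combination. The part of these marker differences in the muscle result was not tested.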

How the data were processed

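Total RNA of mouse ears was sequenced as paired reads of 76 bases (TruSeq Stranded Total RNA, Ribo-Zero Gold). The deposited table holds raw counts per Ensembl gene that the authors made with STAR 2.5.2b (mm10) and featureCounts (Subread 1.5.1). The strand setting and annotation release are not given in the sources used here. Tables of the authors' own DESeq2 comparisons (fold changes, p-values) were used for gene symbols only. Replicates are separate mice, grouped by their labels.

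Counts were filtered with filterByExpr (minimum count 10), scaled by TMM and tested by the quasi-likelihood method of edgeR 4.0.16 (R 4.3.3), with all 4 groups in 1 fit. On simulated counts for IL-17A + IL-36γ against PBS, over 19408 genes, 84 of 100 genes were recovered at a log2 change of 1 and 99 of 100 at 2, with 12 unchanged genes called by edgeR. DESeq2 recovered 88 and 99 and called 48 unchanged genes. These shares are over all genes, which vary less between mice than the members do. Recovered or called here means an adjusted p below 0.05 alone, without the fold threshold used for the calls above. The genes changed by 1 had a median absolute log2 fold change of 0.998 by both tools. Their recovery therefore does not describe calls that also need a change beyond 1. Levels per kb used GENCODE exon lengths, and promoter sequences came from RefSeq (GRCm38.p6).

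The members and lists were chosen with earlier results of these data known. Values in every library are given for the member of each role with the highest mean level per kb, all fast myosin heavy chains, all slow troponins, Pvalb, Ckm and Tpm2. From the other muscle lists, genes among the 3 of highest mean level in a list were named. The chains Myh3, Myh7 and Myh8 were named besides for the myosin shares. Myh8, Chrng and Chrna1 were also described after their values were seen. Alternatives were other scalings and filters, DESeq2 1.42.0 (likelihood ratio test), a fit of only the groups compared, the replicate number as a block, no fold threshold, shares of raw counts and each library left out. One more, without 3 libraries, was chosen after seeing the data.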

Additional observations from a re-analysis of the deposited data

How the results depend on the processing

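The count of members lowered by IL-17A + IL-36γ against PBS, 14, was 26 with library size only, 33 with no filter on low counts and 4 with only the groups compared, where 8.59%, 4.4% and 5.32% of all genes were lowered, and ranged from 2 to 38 with 1 library left out. Against IL-17A the 24 became 7 to 38 with 1 library left out. Without the 3 libraries with Myh4 below 10 CPM (PBS replicate 1, IL-17A + IL-36γ replicates 1 and 2), a choice made after seeing the data and by the level of a member, so that its calls are no test, 25 members were lowered against PBS and 12 against IL-17A, where the median was -0.984, and 5 were lowered by IL-36γ against PBS, where 4.33%, 1.75% and 4.03% of all genes were lowered. It leaves 1 library of the combination, assumed to vary like the other groups. As raw counts, the slow troponin share was 14.32% in PBS, 11.22% with IL-17A, 11.32% with IL-36γ and 16.25% with the combination. With a replicate block, 16 members were lowered against PBS and 31 against IL-17A, and no other comparison gained a call (6.16% and 4.65% of all genes). Same-numbered libraries correlated from -0.199 to 0.352 in 18 pairs, 9 above 0.1. Since not every pair was above 0.1 and no source ties the numbers to a shared litter or day, the numbers were not taken to pair the mice, although 8 of 12 libraries correlated best with their own number, a hint from the data that they may. With library size only, the median of all genes against PBS was -0.168 (combination), -0.128 (IL-17A) and -0.165 (IL-36γ), against -0.025, 0.042 and -0.015 with TMM.

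Folds with no call changed sign in these cases. For IL-17A against PBS with 1 library left out, Acta1 ranged from -0.245 to 0.592, Atp2a1 from -0.108 to 0.792, Ckm from -0.206 to 0.8, Myh2 from -0.273 to 0.331, Myh4 from -0.452 to 0.698 and Pvalb from -0.169 to 0.948. Without the 3 libraries they were -0.282, -0.146, -0.244, -0.231, -0.489 and -0.206, and with library size only Myh2 was -0.085 and Myh4 -0.067. For IL-36γ against PBS with 1 left out, Acta1 ranged from -0.727 to 0.118, Atp2a1 from -0.812 to 0.096, Ckm from -0.886 to 0.128, Myh4 from -1.096 to 0.062 (0.056 with the replicate block) and Tnnc1 from -0.637 to 0.001. Tpm2 ranged from -0.121 to 0.515 there (-0.151 without the 3), from -0.22 to 0.423 for the combination against PBS (-0.039 with library size only, -0.137 without the 3) and from -0.163 to 0.014 against IL-36γ (0.014 without the 3). The cause was not tested.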

Other observations

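Some muscle genes, chosen after their values were seen, did not share the low level of PBS replicate 1. The perinatal myosin heavy chain Myh8 stood at 4.49, 3.43 and 3.55 CPM in PBS replicates 1, 2 and 3, and at 1.64, 1.28 and 2.64 CPM after IL-17A + IL-36γ. Chrng, the fetal subunit of the muscle acetylcholine receptor, stood at 0.609, 0.198 and 0.182 CPM in PBS, on 22, 7 and 6 counts. It had 13, 8 and 4 counts after the combination. Chrna1, the alpha subunit of that receptor, stood at 8.36, 7.30 and 6.55 CPM in PBS (302, 258 and 216 counts). After the combination Chrna1 had 151, 87 and 114 counts. For these genes PBS replicate 1 was the highest of the 3 PBS mice, where Myh4 was at 1.85 CPM in it. In the list of neuromuscular junction and membrane genes, every gene but Chrna1, Chrng and Chrnd had its lowest PBS count in replicate 1. So did every gene but Myh8 in the list of other sarcomere genes.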
